A study of Mus musculus with 10 samples.

Results

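The protein part of the mitochondrial ribosome was examined in mouse retinal microglia through the 78 protein-coding genes whose names begin with Mrpl or Mrps and a digit, out of 55487 genes in the deposited count table. Of these, 49 are named for the large subunit (Mrpl) and 29 for the small subunit (Mrps), and 6 pseudogenes with such names were not included. The cells were viable and GFP-positive, and were sorted from retinas of mice with the genotype Cx3cr1GFP/+, whose GFP reporter replaces a copy of the fractalkine receptor gene and is active in microglia and other myeloid cells. The groups were 4 mice 8 weeks after streptozotocin (8wk STZ), 3 mice 4 weeks after it (4wk STZ) and 3 littermates (Control), and all 3 groups carried the reporter allele. Streptozotocin is a beta-cell toxin that induces diabetes. Both retinas of an animal were pooled, each library came from 1 animal, and the labels give no age, sex or strain background. The same Control group served both time points, and the labels do not say which of them it matches in age. Time after streptozotocin therefore cannot be told apart from any difference in age or day of harvest between the groups.

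Mitochondria carry their own small genome and translate its messenger RNAs on a ribosome of their own. The RNAs of that ribosome, mt-Rnr1 in the small subunit and mt-Rnr2 in the large subunit, are transcribed from mitochondrial DNA. Its proteins are all encoded in the nucleus, made in the cytosol and imported, so the 2 genomes have to be used together to build it. The proteins it makes are core membrane subunits of the complexes of oxidative phosphorylation. Many of its proteins descend from those of bacterial ribosomes, and others are found only in mitochondria.

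The libraries held 33266838 to 62903489 reads, of which 70084 to 166121 fell on the 78 genes. All 8 microglial markers examined, such as Csf1r (7747 ± 267, 9435 ± 298 and 10748 ± 584 CPM in 8wk STZ, 4wk STZ and Control, mean ± SD, n = 4, 3 and 3), passed the filter on low counts. They did not all go the same way. In 8wk STZ 4 were called lower than in Control and 1 higher, against 2.37% of all genes called in either direction. The higher was Siglech, with 1410 ± 49.2 CPM in 8wk STZ, 948 ± 186 CPM in 4wk STZ and 818 ± 113 CPM in the Control libraries. Its log2 fold change over Control was 0.78 (edgeR adjusted p = 0.0135). RNA of rods was present as well. All 16 rod markers passed the filter, and their summed level ran from 2887 to 4016 CPM in 8wk STZ, from 4597 to 6630 CPM in 4wk STZ and from 9453 to 10435 CPM in Control. CPM are read counts scaled to library size, here with the trimmed mean of M-values (TMM). In bulk RNA of this kind, fewer cells of a type and less RNA per cell cannot be told apart.

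Transcripts of the mitochondrial ribosome were present in every group, at levels that differed between genes. Of the 78 genes, 77 passed the filter. Mrpl53, a large-subunit gene, had 0 reads in every library. In the annotation 88.0% of its exonic sequence is shared, on the same strand, with another gene model, Gm42688, so its reads could not have been told apart from that gene's. The mean over all 10 libraries was above 10 CPM for 73 genes and above 50 CPM for 9, and the lowest of the 77 averaged 3.39 CPM. Per kilobase of exon, the median level in Control was 12.6 CPM for the Mrpl genes and 9.91 CPM for the Mrps genes, against 1.92 CPM for all 18957 genes tested.

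Per kilobase, the Mrpl genes were led in Control by Mrpl52 (56.1 ± 6.11 CPM per kilobase), Mrpl2 (40.2 ± 7.73) and Mrpl36 (39.7 ± 3.66; SD, n = 3). Mrpl52 belongs to the proteins found only in mitochondria, whereas Mrpl2 and Mrpl36 have bacterial counterparts. The spread of Mrpl2 and Mrpl36 over the Control libraries covers the difference between them. At the other end stood Mrpl33 (1.95 ± 0.271 CPM per kilobase) and Mrpl13 (2.46 ± 0.169), both with bacterial counterparts. The Mrps genes were led by Mrps21 (53.3 ± 10.0 CPM per kilobase), Mrps33 (29.97 ± 1.12) and Mrps14 (28.0 ± 4.80), and the last 2 do not differ beyond their spread. The lowest of the Mrps genes were Mrps22 (1.40 ± 0.634 CPM per kilobase) and Mrps30 (0.979 ± 0.474), the second of which encodes a protein of the large subunit despite its name. When the length of the longest transcript was used in place of all exonic sequence, Mrpl52 and Mrps21 stayed first, while Mrpl33 moved to rank 45 of the 48 Mrpl genes.

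**Figure D1:**
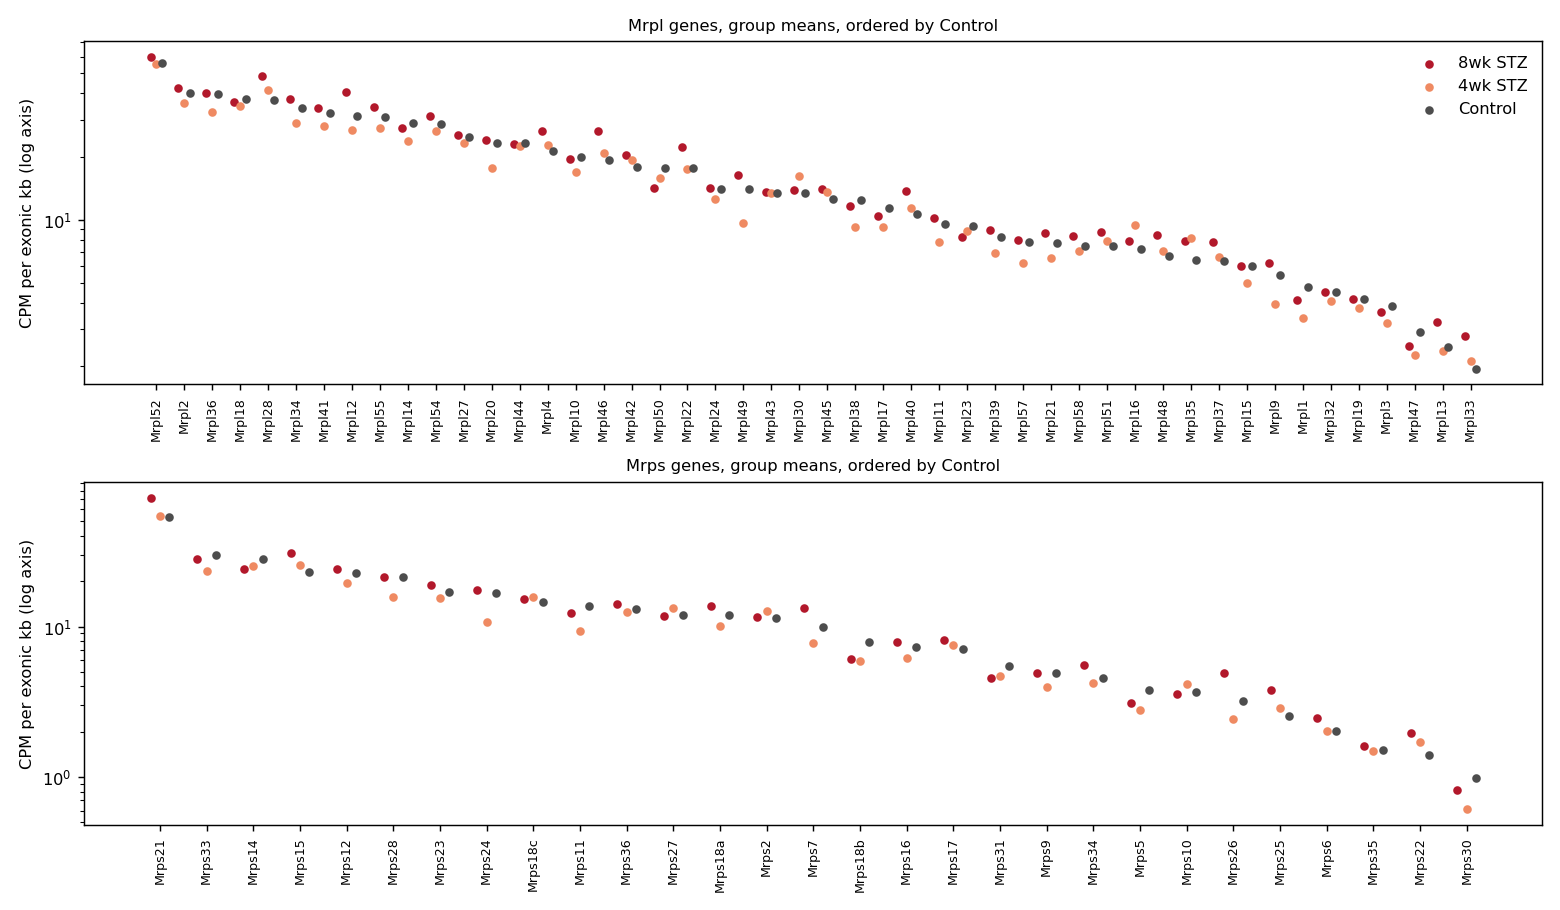
Mean level of each gene that passed the filter, in CPM per kilobase of exon on a log axis, by group (8wk STZ, 4wk STZ, Control) and ordered by Control, with Mrpl genes above and Mrps genes below. Mrpl52 (56.1) and Mrps21 (53.3) led in Control, and the points of the 3 groups lie close together for most genes.

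The genes varied little between animals of a group. The SD of log2 CPM within groups had a median of 0.22 over the 77 genes, against 0.45 over all genes tested, whose median level was lower (2.51 against 4.67 log2 CPM). It ran from 0.08 for Mrps15 to 0.51 for Mrpl9.

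Summed over the 49 Mrpl genes, expression was 1824, 1592, 1825 and 1657 CPM in 8wk STZ, 1467, 1563 and 1468 CPM in 4wk STZ, and 1506, 1685 and 1608 CPM in Control. The 29 Mrps genes summed to 812, 785, 814 and 768 CPM in 8wk STZ, 669, 672 and 712 CPM in 4wk STZ, and 682, 795 and 767 CPM in Control. For both sums every 8wk STZ library stood above every 4wk STZ library, and both STZ groups overlapped Control. The sums follow gene names, so the Mrps sum includes Mrps18a and Mrps30, whose proteins belong to the large subunit. It also includes Mrps36, now placed outside the ribosome. On library totals without TMM, the sums of 8wk STZ no longer overlapped Control: the Mrpl sum averaged 1791 ± 82.98 in 8wk STZ and 1547 ± 83.1 CPM in Control, and the Mrps sum 826 ± 23.6 in 8wk STZ and 724 ± 51.7 CPM in Control (SD, n = 4 and 3). The ratio of the Mrps sum to the Mrpl sum was 0.46 ± 0.02 in 8wk STZ, 0.46 ± 0.03 in 4wk STZ and 0.47 ± 0.01 in Control (SD, n = 4, 3 and 3), and these ratios differed by less than the spread between animals.

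The mitochondrial transcripts that this ribosome contains or translates did not follow the same order. The 13 mitochondrial mRNAs summed to 9726, 7525, 8343 and 6405 CPM in 8wk STZ, 13072, 15985 and 19021 CPM in 4wk STZ, and 15897, 14491 and 16201 CPM in Control. All 8wk STZ libraries lay below all others. Of the 13, 9 were called lower in 8wk STZ than in Control and 7 lower than in 4wk STZ, against 2.37% and 0.918% of all genes called in either direction. An example is mt-Co1, a core subunit of cytochrome c oxidase, with 2049 ± 292 CPM in 8wk STZ, 4055 ± 516 CPM in 4wk STZ, against 3604 ± 402 CPM in Control (edgeR adjusted p = 0.0105 against Control and 0.0164 against 4wk STZ). Its partner subunit mt-Co3 averaged 92.9 ± 19.9, 189 ± 13.5 and 195 ± 0.693 CPM in the same order, and mt-Cytb, the cytochrome b of complex III, 2314 ± 437, 4851 ± 905 and 4958 ± 274 CPM. The sum of mitochondrial mRNAs over the sum of the 78 genes was 3.16 ± 0.43 in 8wk STZ, 7.33 ± 1.31 in 4wk STZ and 6.64 ± 0.73 in Control (SD, n = 4, 3 and 3).

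The ribosomal RNA of the small subunit, mt-Rnr1, stood at 306 ± 58.5 CPM in 8wk STZ, 638 ± 153 CPM in 4wk STZ, against 484 ± 106 CPM in Control. The RNA of the large subunit, mt-Rnr2, stood at 3041 ± 561, 6882 ± 1853 and 4858 ± 765 CPM in the same order of groups. Both were lower in 8wk STZ than in 4wk STZ (edgeR adjusted p = 0.0405 for mt-Rnr1 and 0.0312 for mt-Rnr2) and did not pass against Control (0.125 for mt-Rnr1 and 0.113 for mt-Rnr2). The libraries were made from polyadenylated RNA, so CPM of these RNAs do not measure how much ribosome the cells held. Rod RNA, which also brings mitochondrial transcripts, was lower in 8wk STZ with all 16 rod markers called, and its part in the fall of the mitochondrial transcripts was not tested.

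**Figure D2:**
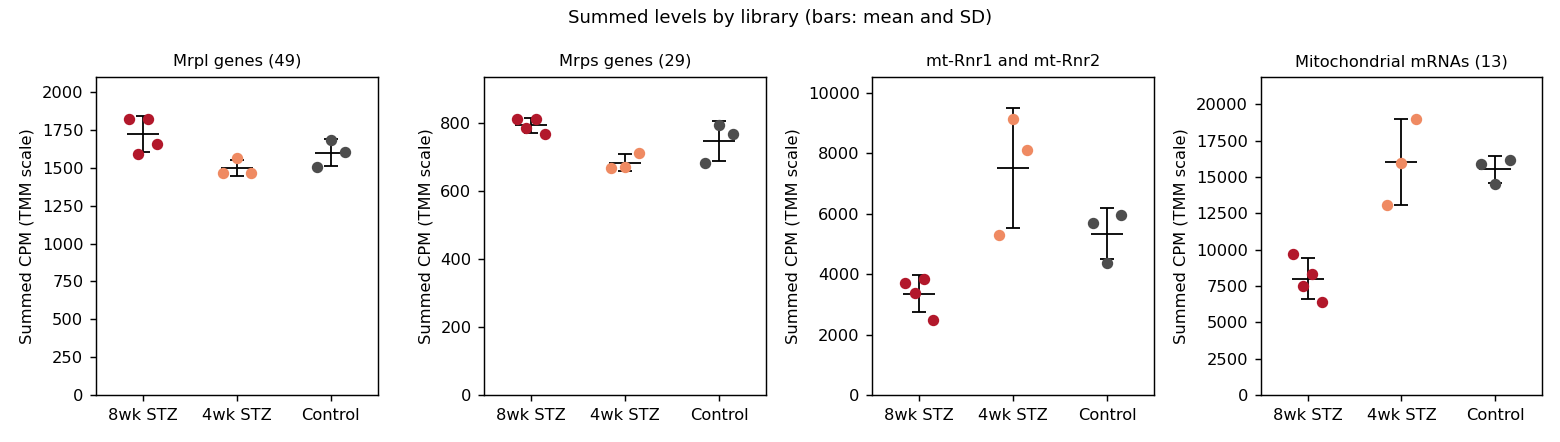
Summed CPM on the TMM scale for the Mrpl genes, the Mrps genes, the mitochondrial rRNAs and the mitochondrial mRNAs, each from 0, with 1 point per library and the mean and SD of 8wk STZ, 4wk STZ and Control. The protein genes lie within narrow ranges (Mrpl 1467 to 1825 CPM), whereas the mitochondrial mRNAs of 8wk STZ (6405 to 9726 CPM) lie below all other libraries.

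The first comparison asks how the genes differ 8 weeks after STZ from Control. Over all genes tested 2.37% were called at an adjusted p below 0.05 (184 higher and 265 lower), and 0 of the 77 genes were called by edgeR. DESeq2 called 2 of the 77, Mrps15 and Mrpl33, against 7.65% of all genes. Their log2 fold changes were small. The median was 0.09 for the Mrpl genes and 0.08 for the Mrps genes, against -0.01 over all genes tested, and the fold change was above 0 for 35 of 48 Mrpl and 19 of 29 Mrps genes, against 49.4% of all genes. Without the library Control 1 the Mrps median was 0.01. Markers of other cells moved in the same comparison. All 16 rod markers were called lower, and of 12 markers of Müller glia and astrocytes 11 had a log2 fold change below 0 and 3 were called, all lower. The sum of those 12 was nonetheless 5971 to 20146 CPM in 8wk STZ and 2849 to 5832 CPM in Control, most of it Apoe, which macrophages also express. The 8 microglial markers summed to 26053 to 28281 CPM in 8wk STZ and 33163 to 37236 CPM in Control, with Siglech on the higher side. Sums of 6 markers of border macrophages varied widely, from 61.8 to 663 CPM in 8wk STZ and from 144 to 437 CPM in Control. Of these 6 markers, 0 were called. The part of these in the values of the 77 genes was not tested. At an unadjusted p below 0.05, 12 genes were higher and 0 lower, 8 of them Mrpl and 4 Mrps, against 8.42% of all genes higher and 7.24% lower. The libraries of the 2 groups did not overlap for 14 genes, all higher in 8wk STZ, against 8.91% of all genes higher and 7.99% lower. The 95% interval of the fold change lay within a 2-fold change in either direction for 72 of the 77 genes. The authors' deposited table, which compares each STZ group with Control, has 0 of 77 of these genes at an FDR below 0.05 in either comparison, against 7.29% of its genes at 8 weeks and 0.801% at 4 weeks.

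The smallest p belonged to Mrps15, a small-subunit protein with a bacterial counterpart. It had 55.8, 51.8, 53.2 and 48.2 CPM in 8wk STZ, 45.6, 41.8 and 43.4 CPM in 4wk STZ and 41.0, 39.3 and 37.3 CPM in Control. The 8wk STZ libraries lie above all others, and the 4wk STZ libraries above all Control libraries. The log2 fold change of 8wk STZ over Control was 0.41 (95% interval 0.18 to 0.65, edgeR adjusted p = 0.0704). Mrps15 passed when libraries were scaled by their totals (adjusted p = 0.0332) and in DESeq2 (adjusted p = 0.00508), and its adjusted p ran up to 0.198 over the other alternatives.

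Mrpl33, a small protein of the large subunit, had 21.1, 20.2, 20.3 and 20.4 CPM in 8wk STZ, 15.9, 14.9 and 15.6 CPM in 4wk STZ and 16.2, 14.4 and 12.2 CPM in Control. All 8wk STZ libraries lie above the rest, with a log2 fold change over Control of 0.52 (95% interval 0.18 to 0.86, edgeR adjusted p = 0.117). DESeq2 called it (adjusted p = 0.0196, and 0.0196 to 0.300 over the alternatives). The annotation gives Mrpl33 a span on chromosome 5 from 31596935 to 31664384 (GRCm38, plus strand), and 3.56% of its exonic sequence is shared on the same strand with Gm43809.

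Mrps26, a small-subunit protein found only in mitochondria, had 18.7, 21.2, 24.1 and 21.2 CPM in 8wk STZ, 13.8, 10.6 and 7.62 CPM in 4wk STZ and 14.9, 13.3 and 13.5 CPM in Control. Its 8wk STZ libraries lie above the libraries of both other groups. Against Control the log2 fold change was 0.62 (95% interval 0.15 to 1.08, edgeR adjusted p = 0.173). Mrps25, likewise found only in mitochondria, had 27.7, 28.0, 20.02 and 23.99 CPM in 8wk STZ and 19.9, 16.9 and 13.6 CPM in Control, which lie only just apart (edgeR adjusted p = 0.202). In the annotation 69.8% of the exonic sequence of Mrps25 lies opposite Nr2c2, and reads of the 2 genes cannot be told apart without strand.

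Among the remaining genes on the higher side, Mrpl48 averaged 69.2 ± 7.14 CPM in 8wk STZ, against 54.9 ± 3.25 CPM in Control, with groups apart (edgeR adjusted p = 0.217). Mrps21, the most abundant small-subunit gene per length, averaged 53.1 ± 4.25 CPM in 8wk STZ, against 39.4 ± 7.39 CPM in Control, also apart (edgeR adjusted p = 0.237). On the lower side no gene reached an unadjusted p of 0.05. The smallest p there were those of Mrpl50 (30.1 ± 4.14 CPM in 8wk STZ, against 37.5 ± 7.86 CPM in Control), Mrps18b (12.7 ± 1.64 in 8wk STZ and 16.5 ± 3.43 CPM in Control), Mrps14 (78.3 ± 6.31 in 8wk STZ and 91.2 ± 15.6 CPM in Control) and Mrps5 (20.4 ± 2.29 in 8wk STZ and 24.9 ± 6.01 CPM in Control; SD, n = 4 and 3). For all 4 the groups overlap. Mrpl17 and Mrpl23, at 79.4 ± 9.44 and 40.3 ± 2.18 CPM in 8wk STZ, against 86.3 ± 18.2 and 45.7 ± 13.3 CPM in Control, overlap as well.

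**Figure D3:**
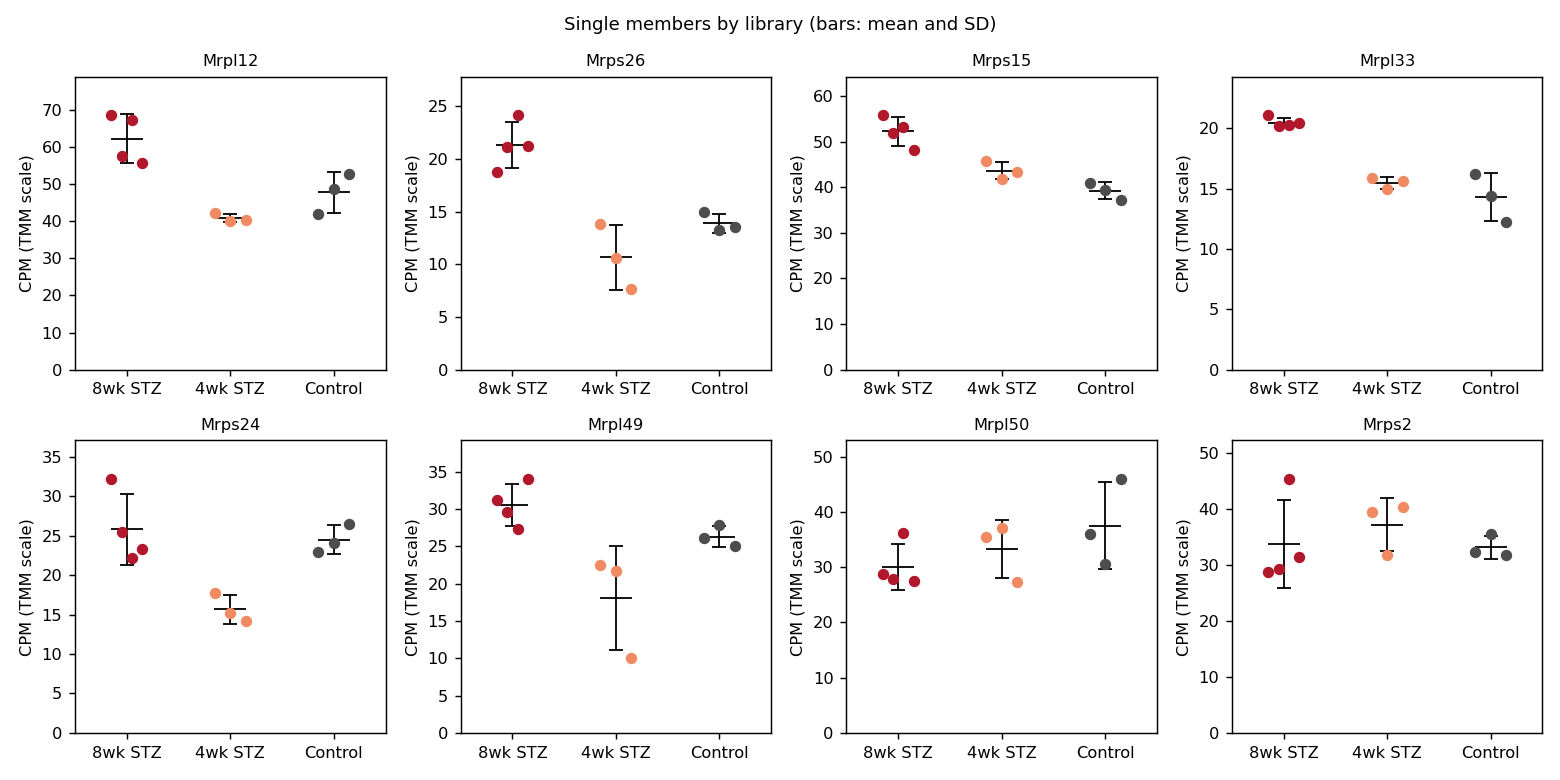
CPM on the TMM scale of 8 genes in each library, from 0, with the mean and SD of 8wk STZ, 4wk STZ and Control. All 8wk STZ libraries of Mrpl12, Mrps26, Mrps15 and Mrpl33 lie above all other libraries, Mrps24 and Mrpl49 are low in 4wk STZ, and 1 library of 8wk STZ stands above the other three for Mrpl50 (36.2 CPM) and for Mrps2 (45.3 CPM).

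At 4 weeks after STZ the balance lay on the other side of Control. Over all genes 0% were called by edgeR (1849 genes had an unadjusted p below 0.05), and 0 of the 77 genes were called by edgeR or by DESeq2, which called 1.66% of all genes. The median log2 fold change was -0.15 for the Mrpl genes and -0.14 for the Mrps genes, against 0.00 over all genes tested. It was above 0 for 13 of 48 Mrpl and 9 of 29 Mrps genes, against 49.6% of all genes. All 16 rod markers lay below 0, with 12 at an unadjusted p below 0.05 and 0 called, and their part was not tested. At an unadjusted p below 0.05, 0 genes were higher and 3 lower, against 4.78% of all genes higher and 4.97% lower (9.75% in either direction). The groups did not overlap for 2 genes that were higher and 6 that were lower, against 6.07% of all genes higher and 6.25% lower. The lower counts were near the shares of all genes, and the higher counts were below them. The 95% interval stayed within a 2-fold change for 70 of 77 genes.

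Those 3 genes were all small-subunit genes. Mrps24 and Mrps11 have counterparts in bacteria, and Mrps28 was not classed by this here. Mrps24 had 17.7, 15.2 and 14.2 CPM in 4wk STZ, against 22.9, 24.1 and 26.5 CPM in Control. The groups lie apart, with a log2 fold change of -0.64 (95% interval -1.04 to -0.24, edgeR adjusted p = 0.316). Mrps11 had 23.1, 19.9 and 18.3 CPM in 4wk STZ, against 27.5, 27.7 and 33.3 CPM in the Control libraries (log2 fold change -0.53, 95% interval -0.89 to -0.18, edgeR adjusted p = 0.331). Mrps28, also apart, had 13.7, 11.2 and 12.0 CPM in 4wk STZ, against 15.8, 18.7 and 15.8 CPM in the Control libraries (log2 fold change -0.45, 95% interval -0.83 to -0.06, edgeR adjusted p = 0.467). At 8 weeks these genes averaged 25.8 ± 4.49, 26.7 ± 2.55 and 16.7 ± 1.23 CPM, against 24.5 ± 1.83, 29.5 ± 3.30 and 16.8 ± 1.67 CPM in Control (SD, n = 4 and 3), and each overlapped its Control values. Of the exonic sequence of Mrps24, 15.4% is shared on the same strand with Urgcp.

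Among the Mrpl genes Mrpl49, found only in mitochondria, was lowest relative to Control, with 22.4, 21.8 and 10.0 CPM in 4wk STZ and 26.1, 27.8 and 24.99 CPM in the Control libraries (log2 fold change -0.54, edgeR adjusted p = 0.542). Its mean rests in part on 4wk STZ 3, since without that library the fold change was -0.25. Mrpl38 and Mrpl20 averaged 23.5 ± 5.27 and 29.4 ± 8.66 CPM in 4wk STZ, against 31.6 ± 7.02 and 38.8 ± 2.83 CPM in Control, and overlapped it. On the higher side Mrpl30 had 54.7, 52.2 and 49.9 CPM in 4wk STZ and 36.9, 46.0 and 47.0 CPM in Control, which lie apart (log2 fold change 0.27, edgeR adjusted p = 0.561). The next Mrpl genes by p on the higher side were Mrpl35 and Mrpl16, with log2 fold changes of 0.34 and 0.38 (edgeR adjusted p = 0.577 and 0.670). The first Mrps genes by p were Mrps15, whose groups lie apart, Mrps2 and Mrps27, with log2 fold changes of 0.15, 0.17 and 0.16 (edgeR adjusted p = 0.736, 0.868 and 0.873).

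The third comparison sets 8 weeks against 4 weeks after STZ, and of the 3 comparisons it gave the medians farthest from 0. The 2 STZ groups are compared directly here, and each was also compared with the same Control libraries above. Over all genes 0.918% were called (75 higher and 99 lower in 8wk STZ), and 0 of the 77 genes were called by edgeR. DESeq2 called 5 of the 77, each given with its values, against 5.3% of all genes, so that share is near the background. The median log2 fold change was 0.24 for the Mrpl genes and 0.29 for the Mrps genes, against 0.00 over all genes. The 16 rod markers all lay below 0 in this comparison, with 15 at an unadjusted p below 0.05 and 6 called. Of the 12 markers of Müller glia and astrocytes, 7 were lower and 1 higher at an unadjusted p below 0.05, and 0 were called. The part of these in the values of the 77 genes was not tested. The fold change was above 0 for 43 of 48 Mrpl and 23 of 29 Mrps genes, against 50.0% of all genes. At an unadjusted p below 0.05, 15 genes were higher (7 Mrpl and 8 Mrps) and 0 lower, against 7.18% of all genes higher and 6.48% lower. The groups did not overlap for 18 genes that were higher and for 1 that was lower (Mrpl30), against 8.39% and 6.97% of all genes. The 95% interval stayed within a 2-fold change for 70 genes, and reached above it for the other 7. These counts are over genes of the same 7 libraries and are a description, since no test was made over the list.

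Mrpl12 stood closest to the threshold. It belongs to the stalk of the large subunit, which contacts translation factors, and has also been reported to bind the mitochondrial RNA polymerase. It had 68.7, 57.8, 67.3 and 55.7 CPM in 8wk STZ, 42.3, 40.1 and 40.5 CPM in 4wk STZ and 42.03, 48.7 and 52.9 CPM in Control. The 8wk STZ libraries lie above all others. The log2 fold change of 8wk STZ over 4wk STZ was 0.61 (95% interval 0.33 to 0.88), with an edgeR adjusted p of 0.0503. Over the alternatives the adjusted p ran from 0.000507 to 0.190, with calls on library totals (0.0284), without the filter on low counts (0.0472) and in DESeq2 (0.000507). Against Control it was 0.38 (95% interval 0.11 to 0.65, edgeR adjusted p = 0.145). In the annotation 13.1% of its exonic sequence lies opposite the noncoding gene Gm16755. Mrpl10, its partner in the stalk, averaged 33.2 ± 4.15 CPM in 8wk STZ, 28.8 ± 4.47 CPM in 4wk STZ, against 34.0 ± 7.20 CPM in Control and overlapped in all comparisons.

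Mrps26 had the largest fold change of the 77 genes, with a log2 value of 1.00 for 8wk STZ over 4wk STZ (95% interval 0.52 to 1.47, edgeR adjusted p = 0.0612). It was called without the filter (adjusted p = 0.0402), in DESeq2 (0.000633) and without 4wk STZ 1 (0.0451), and its adjusted p reached 0.249 with a replicate block. Mrps24, low in 4wk STZ, had 32.3, 25.5, 22.2 and 23.4 CPM in 8wk STZ, above all 3 of its 4wk STZ values, with a log2 fold change of 0.72 (95% interval 0.34 to 1.10, edgeR adjusted p = 0.0850). DESeq2 called it (0.00406), and the range over the alternatives was 0.00406 to 0.260. Mrps7, whose bacterial counterpart starts the assembly of part of the small subunit, had 36.4, 24.99, 26.9 and 21.8 CPM in 8wk STZ and 14.02, 22.4 and 11.7 CPM in 4wk STZ. These values overlap, and the log2 fold change was 0.78 (95% interval 0.23 to 1.33, edgeR adjusted p = 0.192, and 0.0410 to 0.407 over the alternatives).

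Mrpl49 had 31.2, 29.6, 27.3 and 34.1 CPM in 8wk STZ, above all 4wk STZ values given above (log2 fold change 0.76, edgeR adjusted p = 0.198). It was called in DESeq2 alone (0.0434), and without 4wk STZ 3 the fold change was 0.47. Mrpl33 and Mrps15 lay apart as well, with log2 fold changes of 0.40 and 0.26 (edgeR adjusted p = 0.278 and 0.303). On the lower side Mrpl30 averaged 44.7 ± 4.42 CPM in 8wk STZ and 52.3 ± 2.38 CPM in 4wk STZ (log2 fold change -0.23, edgeR adjusted p = 0.476). Mrpl50, Mrpl16, Mrps27, Mrps10 and Mrps2 were next, with log2 fold changes from -0.25 to -0.14 and overlapping libraries. Mrps10 averaged 28.9 ± 1.73 CPM in 8wk STZ and 33.7 ± 17.1 CPM in 4wk STZ, where 1 library held 53.2 CPM.

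**Figure D4:**
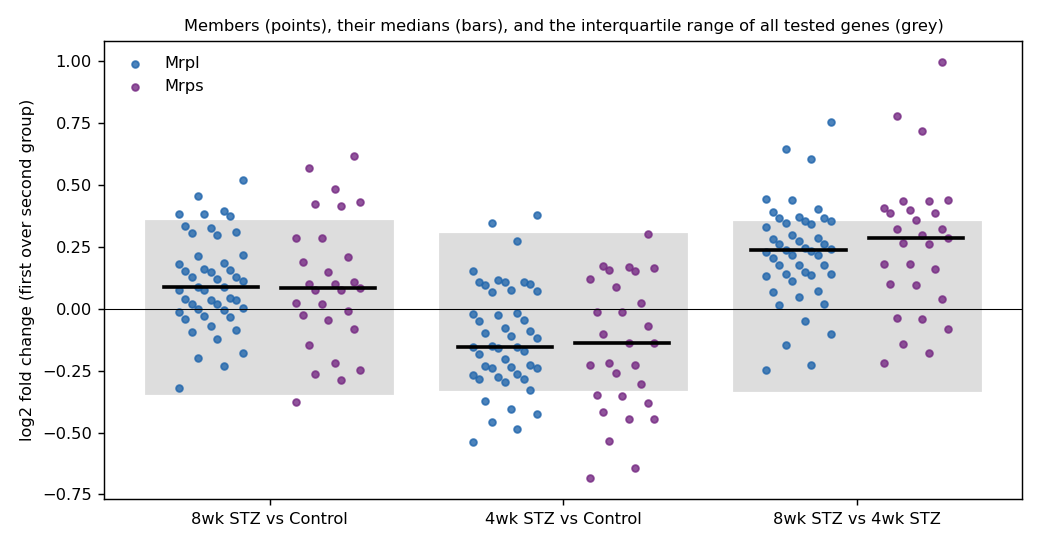
Log2 fold change of the 48 Mrpl and 29 Mrps genes that passed the filter, in 8wk STZ over Control, 4wk STZ over Control and 8wk STZ over 4wk STZ, with the median of each set as a bar and the interquartile range of all genes tested in grey. The medians lie at 0.09 and 0.08, at -0.15 and -0.14, and at 0.24 and 0.29, inside the grey boxes in all 3 comparisons.

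Several genes stand out by their role rather than by their values. The bacterial S18 protein has 3 paralogs in this ribosome, of which Mrps18a sits in the large subunit despite its name, and 0 of them passed by edgeR in any of the 3 comparisons. Mrps18a averaged 50.6 ± 6.001 CPM in 8wk STZ, 37.4 ± 2.49 CPM in 4wk STZ, against 43.8 ± 6.83 CPM in Control (log2 fold change of 8wk STZ over 4wk STZ 0.44, edgeR adjusted p = 0.196). Mrps18b averaged 12.7 ± 1.64, 12.4 ± 2.97 and 16.5 ± 3.43 CPM in the same groups, and 30.5% of its exonic sequence lies opposite Gm16279. Mrps18c averaged 16.4 ± 1.23, 16.9 ± 5.24 and 15.6 ± 2.23 CPM, and 23.2% of its sequence is shared with Gm43511. The differences between paralogs were not tested.

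Mrps30, another protein of the large subunit with a small-subunit name, was among the least abundant at 5.51 ± 1.99 CPM in 8wk STZ, 4.07 ± 0.291 CPM in 4wk STZ, against 6.53 ± 3.16 CPM in Control. Its fold changes have wide intervals, from -1.07 to 0.58 on the log2 scale for 8wk STZ over Control. Mrpl58, a peptidyl-tRNA hydrolase that is built into the large subunit, averaged 27.9 ± 2.55, 23.6 ± 1.27 and 25.1 ± 3.07 CPM in 8wk STZ, 4wk STZ and Control. Mrpl45, through which the ribosome is held at the inner membrane, averaged 36.4 ± 4.49, 35.2 ± 9.44 and 32.7 ± 6.12 CPM in that order. Mrps12, of the decoding centre, averaged 25.2 ± 2.82, 20.1 ± 5.30 and 23.5 ± 4.24 CPM. Mrps36, now regarded as a component of the 2-oxoglutarate dehydrogenase complex rather than of the ribosome, averaged 17.9 ± 1.21, 15.8 ± 3.67 and 16.6 ± 2.20 CPM, and 17.3% of its 50-base words also occur in other transcripts. None of these 5 passed in any comparison.

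Proteins with and without a bacterial counterpart are given side by side, and the difference between them was not tested. Some of the genes are in neither set. Mrps18b, a paralog of the bacterial S18 protein, is counted with the genes without a counterpart. For 8wk STZ over 4wk STZ the median log2 fold change was 0.22 over 28 Mrpl genes with a counterpart and 0.24 over 19 without, and 0.30 over 15 Mrps genes with one and 0.22 over 10 without. For 8wk STZ over Control the same medians were 0.04, 0.12, 0.08 and 0.12, and for 4wk STZ over Control they were -0.16, -0.05, -0.14 and -0.12.

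Other genes of mitochondrial translation were described from lists chosen by role, with calls by edgeR. The shares of all genes called were 2.37%, 0% and 0.918% for 8wk STZ over Control, 4wk STZ over Control and 8wk STZ over 4wk STZ, and the shares at an unadjusted p below 0.05 were 15.7%, 9.75% and 13.7%. The 5 subunits that do not carry an Mrp name (Dap3, Ptcd3, Chchd1, Aurkaip1 and Gadd45gip1) had 0 calls and 0 genes at an unadjusted p below 0.05, and their median log2 fold change was 0.07 for 8wk STZ over Control, -0.13 for 4wk STZ over Control and 0.31 for 8wk STZ over 4wk STZ. The smallest p among them was that of Ptcd3, with 30.04 ± 2.30 CPM in 8wk STZ, 23.4 ± 6.05 CPM in 4wk STZ, against 28.6 ± 0.722 CPM in Control (edgeR adjusted p = 0.392 for 8wk STZ against 4wk STZ). The 27 factors of ribosome assembly and rRNA modification had 0 calls (2, 3 and 3 genes at an unadjusted p below 0.05 for 8wk STZ over Control, 4wk STZ over Control and 8wk STZ over 4wk STZ), with medians of 0.07, -0.17 and 0.20 in the same order. Mtg2, a GTPase of large-subunit assembly, had 26.4, 23.8, 30.2 and 29.4 CPM in 8wk STZ, 17.03, 12.4 and 19.5 CPM in 4wk STZ and 20.2, 27.7 and 17.05 CPM in Control. Its STZ groups lie apart, with a log2 fold change of 0.75 of 8wk STZ over 4wk STZ (edgeR adjusted p = 0.138). The 15 translation factors had 0 calls (3, 0 and 3 genes at an unadjusted p below 0.05), with medians of 0.07, -0.18 and 0.30. Gfm2, an elongation factor that works in ribosome recycling, came closest among them at 66.3, 95.3, 99.0 and 93.8 CPM in 8wk STZ, 60.7, 42.1 and 56.3 CPM in 4wk STZ and 61.3, 53.9 and 51.5 CPM in Control. Its 8wk STZ libraries lie above all others (edgeR adjusted p = 0.0689 against Control and 0.0726 against 4wk STZ).

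Of the 20 mitochondrial aminoacyl-tRNA synthetases and related enzymes, 1 was called. Lars2, which charges the leucine tRNA, had 1193, 1171, 1691 and 1224 CPM in 8wk STZ, against 1886, 2606 and 2795 CPM in 4wk STZ and 2420, 2716 and 2564 CPM in Control. The log2 fold change was -0.96 against Control (edgeR adjusted p = 0.0116) and -0.88 against 4wk STZ (edgeR adjusted p = 0.0322). Its level is far above those of the other enzymes, of which the highest, Gatc, averaged 81.9 ± 16.4 CPM in Control. The search for shared sequence given below did not cover Lars2. Whether reads of other transcripts count in it was not tested. At an unadjusted p below 0.05 there were 4, 2 and 3 of the 20. The medians of the 20 were 0.04, -0.08 and 0.29 for 8wk STZ over Control, 4wk STZ over Control and 8wk STZ over 4wk STZ. The 15 tested genes of mitochondrial transcription and RNA stability and the 9 regulators of mitochondrial biogenesis had 0 calls, with 0, 1 and 2 genes of transcription and 3, 0 and 2 regulators at an unadjusted p below 0.05 in that order of comparisons. Their medians were 0.01, -0.01 and 0.13 for the genes of transcription and -0.07, -0.06 and -0.06 for the regulators. Elac2, which trims the ends of tRNA precursors, had 12.4, 20.7, 11.6 and 20.9 CPM in 8wk STZ, 8.41, 8.70 and 4.26 CPM in 4wk STZ and 18.3, 15.5 and 15.4 CPM in Control. Its 4wk STZ libraries lie below all others (edgeR adjusted p = 0.301 against Control, and 0.110 for 8wk STZ against 4wk STZ). Among the regulators, Esrra, a nuclear receptor that drives genes of oxidative metabolism, averaged 9.44 ± 1.20 CPM in 8wk STZ, 4.02 ± 1.22 CPM in 4wk STZ, against 4.35 ± 1.57 CPM in Control, with groups apart (edgeR adjusted p = 0.115 against Control and 0.120 against 4wk STZ).

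Promoters were searched for short sequences known to be bound by ETS-family factors, YY1 and NRF1, which are regulators of many nuclear genes for mitochondria. RefSeq windows of 300 bases (250 before the start and 50 after it, GRCm38.p6) were matched by symbol for 69 of the 78 genes. The letters CCGGAAG, read on both strands as the ETS core, were found in 26 windows (37.7%), against 13.2% of 16802 protein-coding genes. AAGATGGC, the YY1 core, was found in 12 windows (17.4%), against 3.60%. The NRF1 palindrome, whose letters are the capitals in the stretches of Mrpl9, Mrpl32 and Mrpl39, was found in 3 windows (4.35%), against 1.52%. At least 1 of the 3 was found in 37 windows (53.6%), against 17.2%, and 32 windows held none. The background includes protein-coding genes that did not pass the filter on low counts. The share among the genes tested was not computed. Of the 15 genes with an unadjusted p below 0.05 between 8wk STZ and 4wk STZ, 13 had a window and 9 of these held a match. A match of letters is not a binding site, and no binding was measured. Matches in other genes are not shown. The stretches below show the matches of those 9 genes, which were thus chosen by p, and of the 3 genes with the NRF1 palindrome. Each is 30 bases, 5′ to 3′ on the strand of the gene, with the matched letters in capitals, so that a match on the opposite strand reads as CTTCCGG or GCCATCTT.
Mrpl33, chr5:31613937-31613966, plus strand: ccgcgcatgccCCGGAAGtagtcgttgagc
Mrps26, chr2:130563732-130563761, plus strand: ctccgcggccaCTTCCGGgccgggcgcagg
Mrps21, chr3:95871478-95871507, minus strand: cgtagcttccgCTTCCGGtccgcagagacc
Mrps18a, chr17:46110967-46110996, plus strand: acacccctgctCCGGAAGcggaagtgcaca
Mrps18a, chr17:46111004-46111033, plus strand: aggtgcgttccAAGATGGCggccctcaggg
Mrps24, chr11:5707652-5707681, minus strand: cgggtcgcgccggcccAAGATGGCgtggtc
Mrps11, chr7:78783013-78783042, plus strand: ctacgggcgccGCCATCTTtctgtcttccc
Mrps7, chr11:115604147-115604176, plus strand: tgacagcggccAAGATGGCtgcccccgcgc
Mrpl49, chr19:6057721-6057750, minus strand: gttgaggcgccAAGATGGCagcagcggtgt
Mrpl36, chr13:73330968-73330997, plus strand: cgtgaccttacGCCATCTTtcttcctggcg
Mrpl9, chr3:94443298-94443327, plus strand: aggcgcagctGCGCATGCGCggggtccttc
Mrpl32, chr13:14613105-14613134, minus strand: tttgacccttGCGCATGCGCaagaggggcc
Mrpl39, chr16:84735350-84735379, minus strand: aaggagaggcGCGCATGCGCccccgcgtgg

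The ETS letters of Mrpl33 begin 3 bases before its RefSeq start, and those of Mrps18a 26 bases before. The YY1 letters of Mrps7, Mrps24, Mrpl49 and of the second stretch of Mrps18a begin 18, 36, 16 and 11 bases after the start. Genes with a stretch shown include some that were higher in 8wk STZ at an unadjusted p below 0.05, such as Mrpl33 and Mrps26, and others with overlapping groups, such as Mrpl9. Whether genes with a match differ from those without was not tested.

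Sequence that genes share limits how far single genes can be read. Of the 78 genes, 18 share over 10% of their exonic sequence with another annotated gene, such as Mrps34 with Mapk8ip3 on the opposite strand (63.4%) and Nme3 on the same strand (37.0%), and Mrpl19 with Gcfc2 (36.0%). Words of 50 bases found elsewhere in the transcripts occur in 41 genes and cover over 10% of the words in 8, with Mrpl27 (24.4%) and Mrpl22 (22.4%) the most. How such reads were assigned is not given in the sources used here.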

How the data were processed

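Raw gene counts were deposited by the authors as whole numbers, per the file headers. Named in the submitters' processing notes are the tools bcl2fastq, STAR, Subread, featureCounts, Salmon, edgeR and limma with the build GRCm38. Not given in the sources used here are the tool behind the table, its strand setting and its handling of reads with several matches. Per the labels' protocols, libraries were made with the SMARTer Ultra Low kit, which does not mark strand. A second deposited table gives the authors' comparisons, with log2 fold changes, log2 CPM, a likelihood-ratio score and p-values with FDR, per the file headers, and was used only for the count of genes at an FDR below 0.05. Of the numeric columns, 1 (transcripts per gene) was not used.

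Repeated entries (287 with identical counts) were dropped. Counts were scaled by TMM, filtered with filterByExpr by group and modelled in edgeR 4.0.16 (R 4.3.3) over all 10 libraries with a mean for each group and 7 residual degrees of freedom. The robust quasi-likelihood F-test was adjusted by Benjamini-Hochberg over 18957 genes, and was tested on simulated data. Levels per kilobase and overlaps use GENCODE vM21. Reads carry no molecular identifiers. Same-numbered libraries did not deviate together (correlations of -0.030 to 0.035). With so few libraries this cannot exclude a shared litter or day. The labels do not say that the numbers pair animals, so the replicate block was used only as an alternative.

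Genes named are, per comparison, subunit and direction, the 3 with the smallest p, the highest 3 and lowest 2 per length in Control, and genes with a known role; of each other list, the called genes up to 3 or the 1 with the smallest p. Genes and lists were chosen with earlier results of these data known. Alternatives were other scalings, no filter, DESeq2 1.42.0, a replicate block, each library left out in turn, and Control 3 with 4wk STZ 3 left out.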

Additional observations from a re-analysis of the deposited data

Results flagged for a closer look

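Among the 40 genes named by the rule, 2 had a library of 8wk STZ that stood far from the other three by Dixon's ratio, the gap to the nearest library over the range of the group. Mrpl50 had 36.2 CPM in 8wk STZ 3, against 28.7, 27.9 and 27.4 CPM in the others (ratio 0.856). Mrps2 had 45.3 CPM in 8wk STZ 3, against 28.7, 29.2 and 31.4 CPM (ratio 0.835). Both lie in the same library. Chance alone flags about 1 group in 20.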

How the results depend on the processing

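The medians of the Mrpl and Mrps genes kept their sign in all 17 alternatives of each comparison. Scaling by library totals moved the median of all genes by 0.10 for 8wk STZ over Control and by 0.09 for 8wk STZ over 4wk STZ, and the Mrpl median to 0.19 and 0.32; relative to all genes it then stood at 0.09 and 0.23, against 0.09 and 0.24 with TMM. The share of calls that were higher in 8wk STZ than in Control was 41.0% with TMM, 66.0% on library totals and 30.9% with the upper quartile. For 8wk STZ over Control, edgeR's 449 calls over all genes became 1451 in DESeq2, 44 with the replicate block and 275 without Control 3 and 4wk STZ 3. For 4wk STZ over Control the 0 calls became 12 without the filter and 314 in DESeq2. For 8wk STZ over 4wk STZ the 174 calls became 277 without the filter, 1004 in DESeq2, 0 with the block and 6 without Control 3 and 4wk STZ 3.

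Calls among the Mrpl genes were 1 in DESeq2 for 8wk STZ over Control, and for 8wk STZ over 4wk STZ 1 on library totals, 1 without the filter and 2 in DESeq2. Calls among the Mrps genes were 1 on library totals and 1 in DESeq2 for 8wk STZ over Control, and for 8wk STZ over 4wk STZ 1 without the filter and 3 in DESeq2. Over all 18957 genes, library totals gave 539 calls for 8wk STZ over Control and 168 for 8wk STZ over 4wk STZ. The replicate block left 0 of the Mrpl and Mrps genes called. With 1 library left out, calls over all genes ran from 206 to 462 for 8wk STZ over Control, from 0 to 1 for 4wk STZ over Control and from 13 to 118 for 8wk STZ over 4wk STZ; Mrps calls in the last ran from 0 to 1, the call being Mrps26 without 4wk STZ 1. The Mrpl median then ran from 0.05 to 0.14, from -0.20 to -0.086 and from 0.20 to 0.28 over the 3 comparisons, and the Mrps median from 0.01 to 0.16, from -0.28 to -0.11 and from 0.24 to 0.32. Without Control 1 the Mrps median for 8wk STZ over Control was 0.01, and -0.01 relative to all genes. The causes were not tested.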
